A study of Mus musculus with 34 samples.

Results

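The regions described here carry both histone H3 lysine 9 trimethylation (H3K9me3) and histone H3 lysine 27 acetylation (H3K27ac) in mouse embryonic stem cells of 4 genotypes. They were taken from the list of regions that the study counted for both marks, by joining the 2 count tables on region name. A region was kept if its mean level reached 10 CPM (a region's share of all counts of its library over the list, scaled so that every library has the same total) in each of 4 lines, for H3K9me3 and also for H3K27ac, with chromosomes X and Y left out. This gave 1676 members among 240995 autosomal regions, or 248336 with the sex chromosomes. The members were thus chosen by their levels in the repeated libraries, so those levels and the differences among the 4 lines are given below as description, with no test.

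The 4 genotypes were C57BL/6J (B6), DBA/2J (D2) and a reciprocal pair of congenic strains that exchange a segment of chromosome 13. B6-13D2, labelled QJ or B6.D2-(rs30079041-rs51756099)/Bakr, is B6 apart from that segment, which comes from D2. D2-13B6, labelled XE or D2.B6-(rs29224292-rs13469455)/Bakr, is D2 apart from the segment, which comes from B6. The sample labels and the series design text name different end markers for D2-13B6. One line of each genotype (B6 5-1, D2 5-5, QJ 6-1 and XE 2-4) was profiled in repeated libraries: 3, 2, 2 and 3 libraries of B6, D2, B6-13D2 and D2-13B6 for H3K9me3, and 3 of each for H3K27ac. These are technical replicates of 1 line per genotype, so a difference between genotypes cannot be told apart from a difference between lines. In addition, 3 separate B6 lines (4-1, 4-4 and 5-1) and 3 separate D2 lines (2-9, 5-5 and 203) were profiled once per mark. These libraries were not used to choose the members and carry the tests below, although B6 5-1 and D2 5-5 are among them. H3K9me3 was precipitated with 1 antibody throughout, while H3K27ac was precipitated with another antibody in the separate lines (abcam) than in the repeated libraries (Cell Signaling Technology). The H3K27ac table of the separate lines has its own regions, so an H3K27ac value or test given for a member in those lines is that of the overlapping region, which was wider (median 7.78 kb, against 2.11 kb in the 1545 members that have one). All cells were grown in serum medium to which LIF and the 2 inhibitors of MEK and GSK3 were added.

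H3K9me3 is the histone mark of constitutive heterochromatin. It is laid down at satellite repeats by the SUV39H enzymes, and at transposons, imprinted control regions and zinc finger gene clusters by SETDB1, which is brought there by TRIM28 and KRAB zinc finger proteins. H3K27ac, placed by p300 and CBP, marks active promoters and enhancers. The marks are usually found apart, and a region that shows both in a bulk library can hold them on different alleles, in different cells, in different copies of a repeat or at neighbouring nucleosomes, which sequencing of bulk material does not separate.

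The sequences below show some of the repeats that members hold. Those from chromosomes 1, 4 and 8 were chosen for their repetition and not for the level of the marks. They were read from GRCm38 (mm10), plus strand. The highest members of all lie in a tandem array at the centromeric end of chromosome 9, and the first pair of lines gives consecutive units of 234 bases from it, with capitals where both have the same base. They are 97.01% identical. A unit of 234 bases is that of the mouse major satellite, the repeat of pericentric heterochromatin.
Chromosome 9, first unit, chr9:3000175-3000408: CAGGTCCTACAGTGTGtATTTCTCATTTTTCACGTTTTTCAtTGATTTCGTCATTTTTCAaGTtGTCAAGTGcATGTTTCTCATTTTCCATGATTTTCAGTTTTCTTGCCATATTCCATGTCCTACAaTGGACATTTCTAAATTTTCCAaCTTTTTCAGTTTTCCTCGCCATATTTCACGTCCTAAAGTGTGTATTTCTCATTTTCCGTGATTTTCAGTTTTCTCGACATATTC
Chromosome 9, next unit, chr9:3000409-3000642: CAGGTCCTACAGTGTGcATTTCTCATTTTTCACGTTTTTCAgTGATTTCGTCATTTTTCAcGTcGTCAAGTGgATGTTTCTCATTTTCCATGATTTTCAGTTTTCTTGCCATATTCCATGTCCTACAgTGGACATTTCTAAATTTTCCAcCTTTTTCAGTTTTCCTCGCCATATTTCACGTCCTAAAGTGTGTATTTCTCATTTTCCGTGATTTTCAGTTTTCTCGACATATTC
Members on chromosomes 14 and 2 also hold stretches close to that unit, read from the other strand. The next pair of lines gives the closest 234-base window in each, with capitals where it equals the first chromosome 9 unit after reverse complement and rotation, without gaps. The share of equal bases was 95.3% on chromosome 14 and 94.9% on chromosome 2. In their central 1200 bases the best period was 351 bases on chromosome 14 (64.3% identity) and 234 on chromosome 2 (50.9%).
Chromosome 14, chr14:19418755-19418988: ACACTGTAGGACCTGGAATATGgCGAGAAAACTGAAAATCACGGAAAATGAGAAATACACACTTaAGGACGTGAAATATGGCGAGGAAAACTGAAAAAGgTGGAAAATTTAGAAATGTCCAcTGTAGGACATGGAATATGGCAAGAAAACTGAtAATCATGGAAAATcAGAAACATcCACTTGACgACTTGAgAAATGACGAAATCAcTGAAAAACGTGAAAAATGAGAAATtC
Chromosome 2, chr2:98667034-98667267: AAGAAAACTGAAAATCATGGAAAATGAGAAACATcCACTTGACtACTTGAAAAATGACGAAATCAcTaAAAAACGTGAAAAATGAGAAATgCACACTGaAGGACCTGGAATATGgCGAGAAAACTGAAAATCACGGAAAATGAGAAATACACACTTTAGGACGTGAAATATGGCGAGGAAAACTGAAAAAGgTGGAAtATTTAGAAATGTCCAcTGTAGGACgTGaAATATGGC
A period of 212 bases was found in 9 of 1676 members. It was also found in 60 of the 4078 regions that passed the threshold for H3K9me3 alone, and in 448 of all 240995 autosomal regions. It was thus not particular to the members. Tandem monomers of about that length form the promoters of young mouse L1 retrotransposons. The unit printed comes from an intergenic member on chromosome 1 and was followed by an identical copy, so all letters are capitals.
Chromosome 1, chr1:61498795-61499006: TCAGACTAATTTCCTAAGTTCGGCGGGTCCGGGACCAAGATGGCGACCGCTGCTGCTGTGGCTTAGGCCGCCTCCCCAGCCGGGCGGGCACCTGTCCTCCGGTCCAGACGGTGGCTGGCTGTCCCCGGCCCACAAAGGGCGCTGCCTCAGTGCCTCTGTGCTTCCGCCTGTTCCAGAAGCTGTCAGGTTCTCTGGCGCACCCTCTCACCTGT
The last pair of lines gives, for the gene clusters on chromosomes 4 and 8, the 75-base word found in the largest number of members, in capitals throughout. A word of 75 bases is as long as a read. The word from chromosome 4 occurred 9 times on the assembled chromosomes, all between 145 and 148 Mb, and lay in 5 of 220 members there. The word from chromosome 8 occurred 165 times, 164 of them between 19 and 21 Mb, and lay in 8 of 161 members there.
Chromosome 4, chr4:145517661-145517735: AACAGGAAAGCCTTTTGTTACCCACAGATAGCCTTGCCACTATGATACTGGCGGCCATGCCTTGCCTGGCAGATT
Chromosome 8, chr8:19760137-19760211: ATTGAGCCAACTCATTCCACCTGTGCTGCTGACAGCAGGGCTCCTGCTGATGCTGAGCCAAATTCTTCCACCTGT

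Library totals over the lists were 1487862 to 2559262 counts for H3K9me3 and 8735674 to 18272793 for H3K27ac, so H3K9me3 values rest on fewer counts. The labelled cell type was checked on H3K27ac within 1 kb of gene starts in the separate lines. All 8 embryonic stem cell markers had a region, with a summed level of 1655 to 1764 CPM per library. Of 7 markers of feeder fibroblasts 5 had none, including Col1a1, Col1a2 and Col3a1, and the sum was 2.36 to 3.90 CPM; of 9 markers of differentiated cells 1 had none, and the sum was 49.4 to 56.5 CPM in the B6 lines and 63.8 to 65.2 CPM in the D2 lines, with no overlap. Those markers thus moved with the strain contrast given below, and their part in its results was not tested. D2-13B6 replicate 1 stood apart from the other libraries of its line in both marks. Its counts differed from theirs by a chi-square of 3.00 and 3.28 per degree of freedom for H3K9me3 and 2.82 and 2.81 for H3K27ac, while its sister libraries differed by 1.24 and 0.906. In H3K27ac, 1 pair of libraries of each line differed by no more than counting noise would give (chi-square per degree of freedom of 0.906 to 0.977). The other pairs were at 1.03 to 1.06, apart from those with D2-13B6 replicate 1. Whether pairs within counting noise are independent libraries is not given by the labels, so no more than 2 independent H3K27ac libraries per line were assumed. Line means and the values per library below use all 3, and no SD is given over them; with such pairs averaged first the rule gave 1670 regions, 1657 of them members. Without D2-13B6 replicate 1 of both marks, the rule gave 1618 regions, 1594 of them members.

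The members were a small overlap of 2 larger sets. H3K9me3 reached the threshold in all lines at 5754 autosomal regions and H3K27ac at 14862, so that the members were 29.1% of the first and 11.3% of the second, and 0.695% of the autosomal list. They were wide: the median width was 2010 bp, against 549 bp in the autosomal list, 1132 bp in the 4078 regions that passed for H3K9me3 alone and 1990 bp in the 13186 that passed for H3K27ac alone. Width bears on the rule, since CPM is not divided by length. Of 60 autosomal regions of 8 to 16 kb, 54 were members (90.0%), and of 191543 regions under 1 kb 361 were (0.188%).

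Per length, the members differed. The list as a whole holds 5.35 CPM per kb in every library. Of the members, 1097 (65.5%) were above that density in all 4 lines in both marks, 446 in H3K27ac alone, 31 in H3K9me3 alone and 102 in neither. This split was chosen after the values were seen. Width and the rule fix part of this split, since a region of 1.87 kb reaches 10 CPM at the mean density and any narrower member has to be above it. The median width was 1494 bp in the 1097 and 4019 bp in the other 579. With the threshold set at 10 CPM per kb in place of 10 CPM the rule gave 1927 regions, of which 558 were members.

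**Figure D1:**
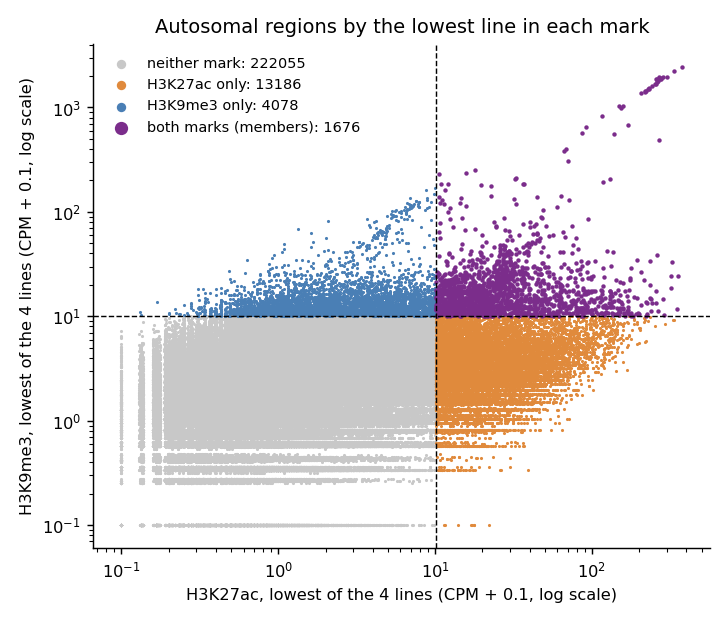
Each point is an autosomal region, placed by its H3K27ac level (horizontal) and its H3K9me3 level (vertical) in the line where it was lowest, in CPM plus 0.1 on log scales. Dashed lines mark the threshold of 10 CPM. The 1676 members fill the upper right corner, and those above 1000 CPM in H3K9me3 form a narrow diagonal band.

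**Figure D2:**
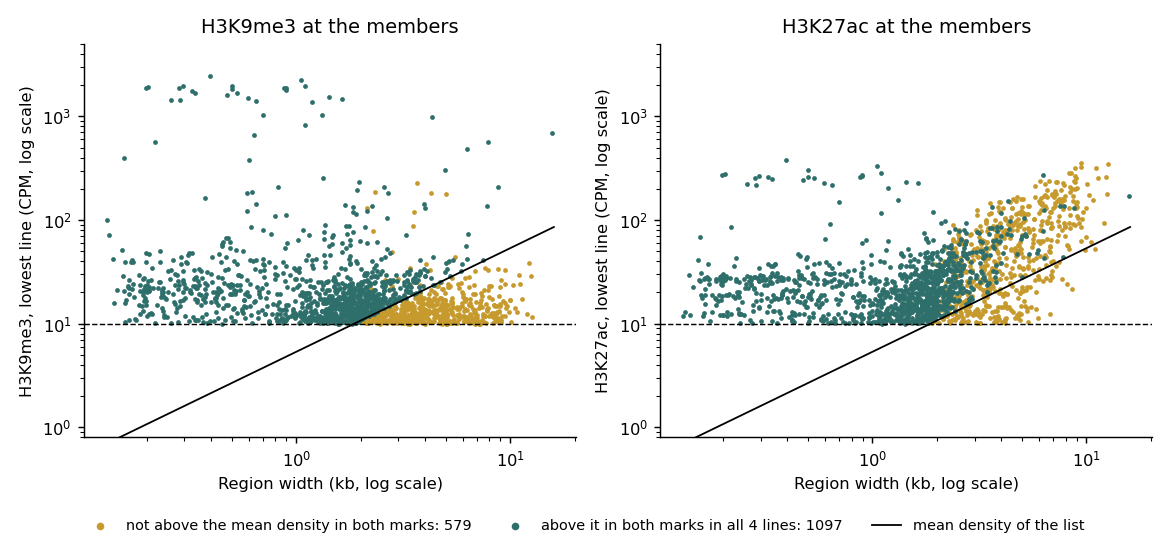
Level in the lowest line (CPM, log scale) against region width (kb, log scale) for the 1676 members, H3K9me3 on the left and H3K27ac on the right. The solid line is the mean density of the list; most of the 579 members coloured as not above it in both marks lie under the line for H3K9me3 and above it for H3K27ac.

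The members were made of repeated sequence more often than the rest of the list. The share of a region's 75-base words that occur more than once on the assembled chromosomes, on either strand, was 50% or more in 223 members (13.3%), against 7.77% of regions with H3K9me3 alone, 0.887% of those with H3K27ac alone and 1.74% of those with neither. Of the 223, 213 were among the 1097 of high density. No repeated word at all was found in 378 members (22.6%), against 65.6% of the regions with H3K27ac alone. A tandem period, taken as 60% or more identity between a base and the base 1 period on in the central 1200 bases, was seen in 42 members (2.51%), 3.04% of the H3K9me3-only regions and 0.0455% of the H3K27ac-only regions. All 24 members with a period of 234 bases were of high density; of the other autosomal regions 1 had that period. Only repeats present in the assembly can be seen this way, and no annotation of repeat families was used. These shares are descriptions, with no test: the members are not independent of each other, since many share a sequence.

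By annotation (GENCODE M21), 739 members (44.1%) were intergenic, 427 (25.5%) intronic, 281 (16.8%) touched a coding exon, 158 (9.43%) an exon of a non-coding gene and 71 (4.24%) an untranslated region. A start of a protein-coding gene lay within 1 kb of 286 members (17.1%), between the 11.1% of the autosomal list and the 46.6% of H3K27ac-only regions. The high-density members and the others differed here as well: 8.11% of the 1097 and 34.02% of the 579 were at such a promoter. Chromosome 4 held 284 members (16.9%) and chromosome 8 held 217 (12.9%), while no other autosome held more than 110. Joined at gaps of up to 10 kb, the members formed 1183 stretches, 1050 of them a single member, and 26 stretches of 5 or more held 373 members.

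**Figure D3:**
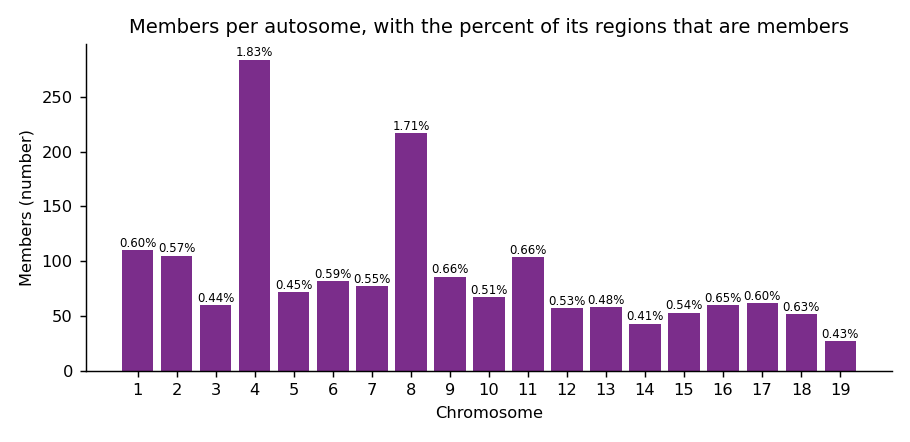
Number of members on each autosome; the figure over each bar is the percent of that chromosome's regions in the list that are members. Chromosomes 4 and 8 stand out, at 1.83% and 1.71%, and the other autosomes lie between 0.41% and 0.66%.

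Among the 4 repeated lines, H3K9me3 at the members was higher on the B6 than on the D2 background, while the median H3K27ac was at similar levels. The median log2 difference of D2 minus B6 over the members was -0.28 for H3K9me3 and 0.023 for H3K27ac, beside 0.14 and -0.25 over the 236482 autosomal regions with counts of both marks in every line. The median H3K9me3 level was 24.7 CPM in B6, 24.3 in B6-13D2, 19.02 in D2 and 18.3 in D2-13B6 (17.7 without replicate 1). For H3K27ac the medians were 33.8, 35.3, 32.8 and 31.2 CPM in the same order. The lowest H3K9me3 level of a member was in D2-13B6 for 624 members, in D2 for 476, in B6-13D2 for 375 and in B6 for 201. Members took 12.9% to 13.6% of an H3K9me3 library of B6 and 9.18% to 9.77% of one of D2, but 8.90% to 9.68% of every H3K27ac library of the 4 lines. Most of that H3K9me3 difference lay in 29 satellite members on chromosome 9, described next, which took 6.76% to 7.38% in B6 and 4.16% to 4.47% in D2. The other 1647 members took 6.101% to 6.23% in B6, 5.76% to 5.88% in B6-13D2, 5.02% to 5.303% in D2 and 4.94% to 5.79% in D2-13B6. Across the members, the range of a member's line means had a median of 0.82 on the log2 scale for H3K9me3 and 0.72 for H3K27ac, and 38 and 55 members spanned 2 or more. In a line, the log2 densities of the marks (CPM per kb) correlated across members at r of 0.68 to 0.75; each point shares its width in both values, and members share sequences. On the CPM scale Spearman's rho was 0.071 to 0.135.

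The satellite members had the highest H3K9me3 in all 4 lines and the highest H3K27ac in all but D2-13B6. The stretch on chromosome 9 (chr9:2999924-3038397) held 29 members over 38.5 kb, all of high density, with a median of 62.7% of words repeated; the annotation places short gene models such as Gm10718, Gm10717 and Gm10719 and the non-coding gene Gm26870 there. The 6 members with the highest level across both marks were all in this stretch. The first of them, chr9:3024328-3024722, had H3K9me3 of 3839, 3677 and 3634 CPM in B6, 3074 and 3064 in B6-13D2, 2551 and 2342 in D2 and 2548, 2539.7 and 2377 in D2-13B6. Its H3K27ac was 721, 637 and 625 CPM in B6, 372, 469.6 and 365 in B6-13D2, 526, 557 and 479 in D2 and 394, 387 and 349.6 in D2-13B6. H3K9me3 was thus higher in every library of the B6 background than in every library of the D2 background, while H3K27ac was lower in each congenic line than in the line of the same background. Its H3K9me3 in the separate lines was 3686 ± 318 CPM in B6 and 2226 ± 294 CPM in D2 (SD, n = 3 each), a log2 fold change of -0.81 ± 0.11 (SE), adjusted p = 1.09e-07 by edgeR's quasi-likelihood test with Benjamini-Hochberg adjustment over all regions, which gives every adjusted p below. Without a filter on low counts the call was lost, at a log2 fold change of -0.76.

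Summed over the 29 members, the stretch held 70741 ± 3130.5 CPM of H3K9me3 in B6 (SD, n = 3 libraries) and 44916 ± 1274 in D2-13B6 (n = 3), with 59082 to 60362 in the 2 libraries of B6-13D2 and 41643 to 44689 in the 2 of D2. For H3K27ac the 3 libraries of B6 held 11642 to 13231 CPM, those of D2 8024 to 10119.9 CPM, those of B6-13D2 6384 to 8431 CPM and those of D2-13B6 6229 to 6704 CPM. The ratio of H3K9me3 to H3K27ac CPM differed between lines. Over the 29 members it was 5.41 to 6.04 in B6, 2.89 to 5.09 in D2, 7.63 to 9.16 in B6-13D2 and 6.599 to 7.64 in D2-13B6. The members share the repeat printed above, so they are not 29 separate measurements. All 29 had less H3K9me3 in the separate D2 lines, where 34.7% of all regions tested were called and 17.4% were called lower. Without a filter on low counts none of the 29 was called, at a median log2 fold change of -0.79; under the other 4 settings tried with all lines, DESeq2 included, all 29 were called lower. Their log2 fold changes (D2 minus B6) were -0.90 to -0.73. All 29 also had less H3K27ac in D2 (median log2 fold change -0.23), where 25.0% of all regions were called lower; they overlap 4 regions of the H3K27ac list, which was called separately.

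Some members away from that stretch were also far above the rest; they were chosen for description after their values were seen. The chromosome 14 member (chr14:19415485-19419779, at the gene model Gm21738) had H3K9me3 of 1334, 1299 and 1241 CPM in B6, 1192 and 1132 in B6-13D2, 1047 and 924 in D2 and 1163, 996 and 981 in D2-13B6. The separate lines gave 3845 ± 326 CPM in B6 and 2538 ± 283 CPM in D2 (SD, n = 3 each; log2 fold change -0.68, SE 0.11, adjusted p = 3.01e-06). The chromosome 2 member (chr2:98666111-98667424, at Gm10800) had 1639 ± 114 CPM and 1153 ± 148 CPM there (log2 fold change -0.59, SE 0.12, adjusted p = 6.93e-05). Both calls were lost without a filter on low counts, at log2 fold changes of -0.64 and -0.54. The widest member of all was chr11:3122420-3138162, 15743 bp at the start of Sfi1, which encodes a centrin-binding protein of the centrosome, and of the pseudogene Pisd-ps1. Its H3K27ac in the repeated libraries was 349.9, 348 and 335 CPM in B6, 160.4, 191 and 161 in B6-13D2, 273, 297 and 278 in D2 and 232, 176 and 174 in D2-13B6. All B6 and D2 libraries were above all congenic ones. In the separate lines, made with the other H3K27ac antibody, the overlapping region covered 8.200% of it and held 11.7 to 12.8 CPM in B6 and 13.4 to 16.1 in D2.

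The largest group of members lay on chromosome 4 between 145 and 148 Mb, a cluster of KRAB zinc finger genes, whose proteins bind repeats and recruit TRIM28. It held 220 members with a median width of 502 bp and a median of 25.1% of words repeated. Both marks were lower in D2 there. Summed over the 220 members, H3K9me3 in the separate lines was 9375 ± 1175 CPM in B6 and 4605 ± 259 in D2 (SD, n = 3 each), with no overlap. Of 220 members tested, H3K9me3 was lower in D2 at 171 and higher at 7, with a median log2 fold change of -1.25; over all regions tested, 17.4% were called lower and 17.3% higher. H3K27ac was lower in D2 at 128 and higher at 14 of 162 members with an overlapping region in the H3K27ac list (77 distinct regions; median -0.53), against 25.0% and 24.3% of all regions tested. In the repeated libraries the sums were 9364 to 10802 CPM of H3K9me3 in B6, 8814 to 8929.6 in B6-13D2, 4439 to 4803 in D2 and 4489.8 to 5581 in D2-13B6, with no overlap between the backgrounds. The H3K27ac sums were 8612 to 9265 CPM in B6, 8872 to 9042 in B6-13D2, 5244 to 5404 in D2 and 5321 to 5635 in D2-13B6, again apart by background. In its longest stretch (chr4:147380226-147473030, 30 members, at Zfp978 and the non-coding genes C230088H06Rik and Gm26624) 25 of 30 members were lower in D2 in H3K9me3 and none was higher. The number of copies of these sequences in D2 was not measured here, so less mark per copy and fewer copies that align to the reference cannot be told apart.

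Zinc finger genes named as Zfp, Zkscan, Zscan or Zbtb had 94 members in their bodies or promoters, at 29 of 490 such genes. These were 3.98% of the 2361 regions at such genes, beside 0.695% of the autosomal list, and 82 of the 94 were of high density. H3K9me3 was lower in D2 at 70 of 94 and higher at 5, with a median log2 fold change of -1.30, beside -0.19 over all members tested; 17.4% of all regions tested were lower and 17.3% higher. H3K27ac was lower at 66 and higher at 9 of 84 (median -0.52), against 25.0% and 24.3% of all regions. Of the 94, 78 lie in the chromosome 4 cluster and are counted there too. The member with the highest level overlapped Zfp600 and an exon of a non-coding gene (chr4:146167205-146168559). Its H3K9me3 in the repeated libraries was 158, 144 and 146 CPM in B6, 135 and 134 in B6-13D2, 52.1 and 47.1 in D2 and 40.96, 51.7 and 44.4 in D2-13B6. The libraries of the B6 background were all above those of the D2 background, with no overlap. Its H3K9me3 in the separate lines was 293 ± 47.1 CPM in B6 and 101 ± 6.49 CPM in D2 (SD, n = 3 each), a log2 fold change of -1.61 ± 0.14 (SE), adjusted p = 1.77e-12. Its H3K27ac was 44.99 to 50.9 CPM in B6 and 47.9 to 52.97 in D2 in the repeated libraries, which overlap, and the separate lines gave a log2 fold change of -0.22 ± 0.062 (SE), adjusted p = 0.00309, over a region of 16.8 kb around the 1.35 kb of the member.

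At Zfp979 a member of 3786 bp (chr4:147636638-147640423) was made almost wholly of repeated words (98.2%). Its H3K9me3 was 132 ± 9.11 CPM in B6 and 19.9 ± 3.89 CPM in D2 (SD, n = 3 each; log2 fold change -2.79, SE 0.17, adjusted p = 3.39e-16). Its H3K27ac in the repeated libraries was 162, 169.7 and 175 CPM in B6, 152, 142 and 151 in B6-13D2, 70.7, 68.2 and 67.2 in D2 and 75.9, 86.95 and 77.7 in D2-13B6. Zfp936 on chromosome 7 was mostly unique sequence (4.599% repeated) and gave a like difference in H3K9me3 (chr7:43166658-43168927, in an intron). It had 115 ± 24.6 CPM in B6 and 18.8 ± 3.01 CPM in D2 (SD, n = 3 each), a log2 fold change of -2.70 ± 0.18 (SE), adjusted p = 2.04e-15. Its H3K27ac changed by less, with a log2 fold change of -0.29 ± 0.071 (SE), adjusted p = 6.43e-04.

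On chromosome 8, between 19 and 21 Mb, the called members were mostly higher in D2, in H3K27ac more widely than in H3K9me3. The group held 161 members, with a median width of 457 bp and a median of 59.1% of words repeated, and between 20 and 21 Mb 120 of 152 regions of the list were members. The longest stretch of members in the genome was here (chr8:20258598-20395950, 44 members over 137 kb, at Gm15319, 6820431F20Rik, Gm26804 and 2610005L07Rik). Summed H3K9me3 in the separate lines was 4808 ± 20.7 CPM in B6 and 6556 ± 397 in D2 (SD, n = 3 each), with no overlap. Of 154 members tested, H3K9me3 was higher in D2 at 52 and lower at 8 (median log2 fold change 0.36), against 17.3% and 17.4% of all regions tested; without a filter on low counts these were 25 and 2 of 161. The direction was not shared by all stretches: of 20 members at chr8:20406357-20442821, 4 were higher and 5 lower (median -0.32). H3K27ac was higher in D2 at 126 of 128 members with an overlapping region and lower at none (47 distinct regions; median 0.53), against 24.3% and 25.0% of all regions. In the repeated libraries the H3K9me3 sums were 6985 to 7207 CPM in B6, 6027 to 6614 in B6-13D2, 10454 to 10591 in D2 and 11362 to 15000.0 in D2-13B6 (mean 13181 without replicate 1), again with the backgrounds apart. The H3K27ac sums of those lines did not show that order: they were 5544 to 6572 in B6, 6445 to 6729 in B6-13D2, 5776 to 5886 in D2 and 4629.7 to 5039 in D2-13B6.

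Imprinted genes are the textbook case of both marks at 1 place, since the silent parental allele carries H3K9me3 and the other allele can be active. Of 50 imprinted genes listed, 4 had a member. These 3 members (at Peg3 with Usp29, Jade1 and Sfmbt2) were 0.706% of the 425 regions at the listed genes, near the 0.695% of the autosomal list. All 3 were outside the high-density class. H3K9me3 was lower in D2 at 2 of 3 and H3K27ac higher at 3 of 3, where 17.4% and 24.3% of all regions tested were. The lower call at Jade1 comes from the separate lines (log2 fold change -1.24, SE 0.27, adjusted p = 3.04e-04). In the repeated libraries its H3K9me3 was 11.4, 12.1 and 11.2 CPM in B6 and 13.3 and 16.8 in D2, in the opposite order. Jade1 and Sfmbt2 are known to be imprinted in the early embryo through maternal H3K27me3 instead of DNA methylation. The Peg3 and Usp29 member (chr7:6726759-6731328) covers the start of Peg3, a paternally expressed zinc finger gene, and of its divergent neighbour. Its H3K9me3 was 50.2, 48.8 and 35.2 CPM in B6, 33.6 and 36.8 in B6-13D2, 11.4 and 12.6 in D2 and 14.3, 10.2 and 17.4 in D2-13B6, and all libraries of the B6 background were above all of the D2 background. Its H3K27ac was 39.6, 41.00 and 41.3 CPM in B6, 43.4, 45.3 and 42.4 in B6-13D2, 74.9, 71.4 and 77.9 in D2 and 73.5, 79.4 and 75.5 in D2-13B6, with the backgrounds in the opposite order. In the separate lines H3K9me3 was 41.6 ± 10.3 CPM in B6 and 10.3 ± 1.07 CPM in D2 (SD, n = 3 each; log2 fold change -2.07, SE 0.22, adjusted p = 4.22e-10), and H3K27ac was 30.5 ± 1.79 CPM and 49.8 ± 4.31 CPM (log2 fold change 0.72, SE 0.078, adjusted p = 2.98e-11). The member held no repeated word. ZFP57, which keeps imprints, binds the methylated letters TGCCGC, which occurred 8 times in the member on either strand, or 1.75 per kb. They were found in 474 members, 20 of them with more per kb. In the central 300 bases they were absent from this member and present in 4.95% of members, 10.9% of H3K9me3-only regions, 12.2% of H3K27ac-only regions and 5.86% of the autosomal list. The window of 300 bases outside untranslated exons with the most of them is given here, with the letters in capitals on either strand.
Peg3 and Usp29, chr7:6729419-6729718, GRCm38, plus strand: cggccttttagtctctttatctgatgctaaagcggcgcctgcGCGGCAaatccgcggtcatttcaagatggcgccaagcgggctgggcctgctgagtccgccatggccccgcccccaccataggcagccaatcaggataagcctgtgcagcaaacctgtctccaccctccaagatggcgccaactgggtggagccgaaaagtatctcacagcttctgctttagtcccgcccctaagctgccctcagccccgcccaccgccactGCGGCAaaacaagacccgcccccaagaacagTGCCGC

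The other gene lists had few members. Of 28 genes for heterochromatin writers and readers 3 had a member, at 1.29% of their 233 regions, beside 0.695% of the autosomal list. The member at Trim28, whose product brings SETDB1 to KRAB zinc finger proteins, was chr7:13021951-13026864. Its H3K9me3 in the separate lines was 8.61 ± 2.55 CPM in B6 and 24.3 ± 1.23 CPM in D2 (SD, n = 3 each), a log2 fold change of 1.404 ± 0.25 (SE), adjusted p = 1.78e-05. In the repeated libraries it was 8.95 to 16.3 CPM in B6 and 13.98 to 16.8 in D2, which overlap. H3K27ac was higher in D2 as well (log2 fold change 0.34, SE 0.061, adjusted p = 7.91e-06). The members at Atf7ip, a partner of SETDB1, and Morc3 were not called in either mark, with H3K9me3 log2 fold changes of 0.35 ± 0.20 (SE), adjusted p = 0.181, and of 0.45 ± 0.20 (SE), adjusted p = 0.0689. Of 20 germline genes 2 had a member, at 3.08% of their 65 regions. The one shared by Zcwpw1, a reader of histone methylation in meiosis, and Mepce, which caps 7SK RNA (chr5:137784520-137788137), had more H3K9me3 in D2 (18.3 ± 3.91 CPM against 7.12 ± 1.34 CPM in B6, SD, n = 3 each; log2 fold change 1.29, SE 0.28, adjusted p = 3.35e-04), and the intronic member of Stk31 was not called (log2 fold change -0.43, SE 0.18, adjusted p = 0.0553).

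Naive pluripotency genes had 5 members, at Tfcp2l1, Klf2, Prdm14 and, in 2 places, Esrrb, which encode transcription factors of the embryonic stem cell network. These members were 6.85% of the 73 regions at the listed genes, beside 0.695% of the autosomal list. None was of high density in both marks, and none was called in either mark, where 34.7% and 49.3% of all regions tested were called. The Esrrb member chr12:86500252-86506911 shows the kind: H3K27ac was 227 to 246 CPM in B6 and 264 to 283 in D2-13B6, while H3K9me3 was 6.96 to 13.7 and 14.3 to 18.3 CPM. Over its 6.66 kb the H3K9me3 density of B6 was 1.67 CPM per kb, under the 5.35 CPM per kb of the list, and in the separate lines it was 5.38 to 10.1 CPM in B6.

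The strain contrast over all members compares 3 separate D2 lines with 3 separate B6 lines. For H3K9me3, 1624 of 1676 members passed the filter on low counts, and 751 of them (46.2%) had an adjusted p under 0.05, against 34.7% of the 44797 regions tested. DESeq2 called 568 members (34.98%) and 21.5% of all regions, and without a filter on low counts 442 of 1676 members (26.4%) and 6.196% of 248198 regions were called. With edgeR and the filter, D2 was lower at 529 and higher at 222, while over all regions 17.4% were lower and 17.3% higher. The median log2 fold change of the members was -0.19, beside 0.00025 over all regions tested. Scaled to library totals in place of TMM, the median over all regions moved to 0.16, and the calls at members became 300 higher and 431 lower. High-density members had 124 higher and 362 lower of 1064, and the others 98 and 167 of 560. Outside the 3 large groups on chromosomes 4, 8 and 9, 484 of 1221 members were called (39.6%), 163 higher and 321 lower, or 224 and 233 when scaled to library totals. The members took 16.5% ± 1.54 of an H3K9me3 library in the separate B6 lines and 11.8% ± 0.972 in the D2 lines (SD, n = 3 each), with no overlap. Of this, the 29 satellite members on chromosome 9 took 8.53% ± 0.769 and 5.06% ± 0.588. The other 1647 members took 8.01% ± 0.852 and 6.71% ± 0.4, also with no overlap.

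For H3K27ac, 1545 members overlapped a tested region of the separate list, and 1106 (71.6%) were called, against 49.3% of 96291 regions. D2 was higher at 696 and lower at 410, while 24.3% of all regions were higher and 25.0% lower. Counted as distinct regions, 862 of 1275 were called, 572 higher and 290 lower. The median log2 fold change was 0.13, beside -0.013 over all regions tested. Outside the 3 large groups 556 members were higher and 253 lower of 1226. The members have higher counts than most regions. With only regions of 20 or more counts on average, 41.2% of all regions and 48.6% of members were called in H3K9me3, and 50.6% and 71.7% in H3K27ac. That filter left 16145 regions in H3K9me3, beside 44797 in the main fit, but 88061 beside 96291 in H3K27ac. Members and other regions were not matched by count, so the part of depth in these shares was not tested.

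Both marks were called at 529 of 1495 members tested in both (35.4%), beside 6216 of 21752 other autosomal regions (28.6%). They moved the same way at 248 (168 lower in both and 80 higher in both) and opposite ways at 281, or 53.1% beside 66.96% of the other regions called in both (211 with less H3K9me3 and more H3K27ac in D2, and 70 the reverse). The groups differed in this. In the chromosome 4 cluster 109 of 116 members called in both marks moved the same way, and among members with 50% or more of their words repeated 95 of 106 did. Outside the 3 large groups 266 of 334 moved opposite ways (79.6%), beside the 4162 of 6216 of the autosomal regions that were not members. Across the members tested in both marks, r between the log2 fold changes was -0.051 (n = 1495), 0.63 among those with 50% or more repeated words (n = 188) and -0.36 outside the 3 groups (n = 1182). These are descriptions across regions that share libraries and, in the clusters, sequence.

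**Figure D4:**
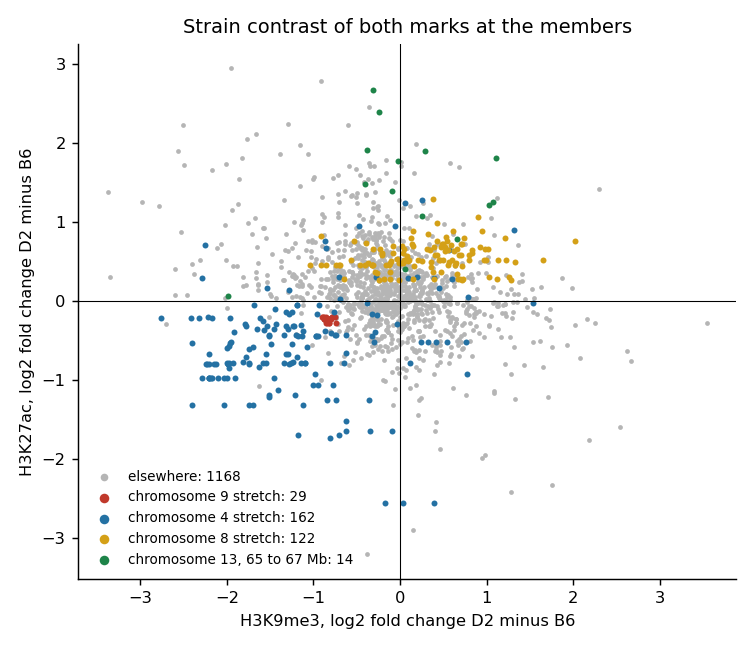
Log2 fold change between separate D2 and B6 lines in H3K9me3 (horizontal) and H3K27ac (vertical) at the members tested in both marks; colours give the groups named in the text, and the legend gives their numbers. The chromosome 4 members lie mainly in the lower left, the chromosome 8 members above 0 in H3K27ac, the chromosome 9 members in a tight cluster, and the other members run from upper left to lower right.

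The members with the largest changes in H3K9me3 that kept the groups apart were single regions of mostly unique sequence, apart from Zfp979. The largest increase of H3K9me3 in D2 was at an intergenic member 8.66 kb from BC035044 (chr6:128836996-128840433), with 3.71 ± 1.66 CPM in B6 and 47.3 ± 7.06 CPM in D2 (SD, n = 3 each), a log2 fold change of 3.54 ± 0.27 (SE), adjusted p = 1.85e-13. The next was at Xkr8 and the neighbouring Smpdl3b; Xkr8 encodes a lipid scramblase active in apoptosis (chr4:132731287-132739947, 10.9 ± 0.425 CPM and 74.8 ± 13.3 CPM; log2 fold change 2.67, SE 0.20, adjusted p = 1.37e-13). The largest decrease was at Ezr, the gene of the membrane linker ezrin (chr17:6742948-6746449), with 41.1 ± 14.5 CPM in B6 and 4.06 ± 0.902 CPM in D2, a log2 fold change of -3.37 ± 0.27 (SE), adjusted p = 6.33e-13. H3K27ac over the region of 25.01 kb around that 3.502 kb member was 52.1 ± 4.72 CPM and 134 ± 7.02 CPM (log2 fold change 1.38, SE 0.069, adjusted p = 2.57e-24). The intronic member of Tns3, the tensin gene (chr11:8573750-8577434; log2 fold change -3.35, SE 0.22, adjusted p = 3.43e-15), and that of Abat, the GABA transaminase gene (chr16:8553759-8556260; log2 fold change -2.98, SE 0.20, adjusted p = 2.23e-15), followed. At Abat H3K27ac, over 20.99 kb around the 2.502 kb member, was 65.2 ± 2.89 CPM in B6 and 154 ± 6.73 CPM in D2 (log2 fold change 1.25, SE 0.067, adjusted p = 5.62e-23). A member in 1700020G17Rik (chr10:110854049-110857686) did the reverse: H3K9me3 was 17.9 ± 4.26 CPM in B6 and 112 ± 3.75 CPM in D2 (log2 fold change 2.54, SE 0.19, adjusted p = 3.74e-14), and H3K27ac was 66.1 ± 4.34 CPM and 21.6 ± 1.38 CPM (log2 fold change -1.60, SE 0.079, adjusted p = 2.45e-24). The remaining increase named by the rule, in Gm26510 (chr17:70870014-70874384), had an H3K9me3 log2 fold change of 2.62 ± 0.20 (SE), adjusted p = 1.03e-13. At the 4 increases and 4 decreases named by the rule, Zfp979 included, the log2 difference of D2 minus B6 in the repeated libraries was 1.25 to 1.71 and -2.64 to -1.74. In the separate lines it was 2.54 to 3.54 and -3.37 to -2.79. The smaller values say nothing of a difference between these sets of libraries, since selection favours that order. The regions were picked as the largest changes in the separate lines, and every member had to reach 10 CPM in each repeated line, which limits the fold there.

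Among the largest changes in H3K27ac, H3K9me3 was not always called. The intronic member of Nod1, a sensor of bacterial cell walls (chr6:54952165-54955813), had H3K27ac of 114 ± 5.92 CPM in B6 and 15.1 ± 1.72 CPM in D2 (SD, n = 3 each; log2 fold change -2.90, SE 0.082, adjusted p = 5.84e-35), while its H3K9me3 was 78.02 ± 19.8 CPM and 91.2 ± 3.35 CPM (log2 fold change 0.15, SE 0.15, adjusted p = 0.477). The member in Tmem267 (chr13:119595856-119599373) had 181 ± 12.01 CPM and 19.2 ± 6.83 CPM of H3K27ac (log2 fold change -3.21, SE 0.11, adjusted p = 5.44e-32) and an H3K9me3 log2 fold change of -0.38 ± 0.13 (SE), adjusted p = 0.0189. The H3K9me3 call was lost under 8 of 11 alternatives, at -0.37 to -0.22. In the repeated libraries its H3K9me3 set the backgrounds apart, with line means of 292 CPM in B6, 339 in B6-13D2, 111 in D2 and 87.7 in D2-13B6. The other decreases named by the rule were neighbouring members in Gm26573 on chromosome 4 that share 1 region of the H3K27ac list (log2 fold change -2.55, SE 0.078, adjusted p = 1.07e-33). That region is 8.06 kb wide and the members are 343 and 422 bp. In the repeated libraries, where H3K27ac was counted over the members themselves, it went from 29.3 CPM in B6 to 13.1 in D2 at the first and from 31.4 to 12.9 at the second, log2 differences of -1.16 and -1.28. The largest increase was at an intergenic member 80.1 kb from Mup20 (chr4:61967283-61970098), with H3K27ac of 11.8 ± 0.395 CPM and 89.7 ± 7.81 CPM (log2 fold change 2.94, SE 0.084, adjusted p = 8.30e-35) and H3K9me3 of 84.6 ± 16.8 CPM and 23.04 ± 5.07 CPM (log2 fold change -1.95, SE 0.19, adjusted p = 4.09e-11). Increases at chr4:4549147-4552061 and chr1:130244903-130247645 had log2 fold changes of 2.78 ± 0.085 (SE), adjusted p = 1.07e-33 and 2.45 ± 0.091 (SE), adjusted p = 6.65e-30 in H3K27ac. In H3K9me3 theirs were -0.91 ± 0.16 (SE), adjusted p = 1.63e-05 and -0.36 ± 0.15 (SE), adjusted p = 0.0562.

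Differences of 2-fold or more with the chromosome 13 segment were found at few members. In the repeated lines a line with the D2 segment had 2-fold or more the H3K9me3 of its counterpart, on both backgrounds, at 14 members, and 2-fold or more below it at 2. The H3K27ac of members did so at 16 and 7. Together they are 0.955% and 1.37% of the members, beside 0.556% and 0.686% of the autosomal regions that reached 10 CPM of that mark in each of the 4 lines. Those regions (5754 for H3K9me3 and 14862 for H3K27ac) include the members. A rule that asks for 10 CPM in every line leaves out regions that are near 0 in some. Smaller differences in 1 direction were more frequent: every library with the D2 segment was above every library of its counterpart, on both backgrounds, at 71 members in H3K9me3 and 223 in H3K27ac, and below at 102 and 189. In H3K9me3 these were 4.24% higher and 6.09% lower among the members, beside 3.51% higher and 2.45% lower among the same autosomal regions. The 102 lower members are part of the 141 lower regions in that set. In H3K27ac they were 13.3% higher and 11.3% lower among the members, beside 8.69% higher and 10.3% lower among those regions. More of the members were thus lower than higher in H3K9me3 and higher than lower in H3K27ac, while those regions had the opposite order in both marks; this was over technical replicates of 1 line each and was not tested. Of the 14 and 16 members higher by 2-fold or more, 12 and 14 lie on chromosome 13, and all 12 and 13 of the 14 between 65 and 67 Mb, where 14 members were found in all (median 59.3% of words repeated). At each of these 14 members the line means of both marks were higher with the D2 segment on both backgrounds. The intergenic member chr13:66588311-66590725 had H3K9me3 of 32.8, 36.2 and 26.5 CPM in B6, 104 and 123 in B6-13D2, 71.2 and 66.5 in D2 and 18.2, 16.1 and 15.1 in D2-13B6. Its H3K27ac was 18.4, 16.1 and 16.8 CPM in B6, 178, 181 and 183 in B6-13D2, 161, 161 and 164 in D2 and 22.2, 25.9 and 24.1 in D2-13B6. Libraries with the D2 segment were above those with the B6 segment in both marks, with no overlap. The same held for chr13:65741775-65743619, where H3K9me3 was 19.4, 15.8 and 17.3 CPM in B6, 118 and 149 in B6-13D2, 82.6 and 89.1 in D2 and 20.8, 12.2 and 15.1 in D2-13B6 and H3K27ac was 13.8, 13.6 and 13.6 CPM in B6, 147, 146 and 149 in B6-13D2, 147, 152 and 139 in D2 and 14.02, 13.4 and 13.99 in D2-13B6. In the separate lines H3K27ac was higher in D2 at 13 of 14 of these members (median log2 fold change 1.44), where 24.3% of all regions were, but H3K9me3 was higher at 4, lower at 2 and not called at 8 (median 0.012), where 17.3% of all regions were higher and 17.4% lower. At chr13:66588311-66590725, for example, the H3K9me3 of the separate lines was 55.8, 34.02 and 36.8 CPM in B6 and 37.2, 40.2 and 28.8 in D2, which overlap.

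Away from chromosome 13, where 1618 of the 1676 members lie, few members differed by 2-fold or more with the segment. Of the 1618 members on other chromosomes, 53 were higher and 102 lower with the D2 segment in every library in H3K9me3, and 196 and 182 in H3K27ac. For H3K9me3 these are 3.28% and 6.304% of them, beside 2.94% and 2.51% of the autosomal regions off chromosome 13 with 10 CPM of that mark in each line, and for H3K27ac 12.1% and 11.2%, beside 7.71% and 10.5%. The shares of higher H3K9me3 and of lower H3K27ac were thus near those of all such regions, which include the members. By 2-fold or more, H3K9me3 was higher at 2 and lower at 2 of them, and H3K27ac higher at 2 and lower at 5. The 2 higher in H3K27ac were at Adam32 and Ezr. At a member that touches a coding exon of Adam32, of a family of membrane proteins with a metalloprotease domain (chr8:24915972-24919956), H3K27ac was 48.7, 50.7 and 47.6 CPM in B6, 117, 106 and 113 in B6-13D2, 122, 112 and 115 in D2 and 29.99, 40.6 and 43.9 in D2-13B6. Libraries with the D2 segment were all above those without it. At Ezr (chr17:6742948-6746449) H3K27ac was 17.4, 21.03 and 21.8 CPM in B6, 55.7, 54.2 and 57.1 in B6-13D2, 43.1, 40.4 and 43.4 in D2 and 22.2, 18.7 and 19.96 in D2-13B6, higher with the D2 segment in every library. Its H3K9me3 was 56.7, 44.1 and 47.4 CPM in B6, 17.97 and 16.5 in B6-13D2, 8.26 and 12.6 in D2 and 14.3, 22.4 and 13.3 in D2-13B6, so that B6 alone was high. The largest of the 5 differences in the other direction was at an intergenic member whose nearest coding gene is Anxa11 (chr14:25823981-25826764), with 63.98, 63.5 and 67.7 CPM in B6, 9.49, 11.8 and 10.7 in B6-13D2, 12.4, 13.2 and 12.2 in D2 and 44.01, 47.9 and 48.5 in D2-13B6, lower with the D2 segment in every library. The other 4 were at Rgs20 and the non-coding Gm16041 (chr1:4970020-4973348), near Clec11a (chr7:44296965-44298423), in an intron of Gm46102 (chr9:9393123-9395262) and in one of Gm8189 (chr19:8496381-8498994), with log2 differences of line means from -1.15 to -1.82 on the 2 backgrounds. In the separate lines H3K27ac was lower in D2 at 4 of these 5, and near Clec11a it was not called (log2 fold change -0.055, SE 0.07, adjusted p = 0.531); 25.0% of all regions tested were called lower.

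The intergenic member near BC035044 (chr6:128836996-128840433) had H3K9me3 of 12.9, 8.400 and 14.8 CPM in B6, 21.8 and 32.1 in B6-13D2, 28.6 and 28.8 in D2 and 14.95, 10.7 and 11.4 in D2-13B6, higher with the D2 segment, and the other member outside chromosome 13 that did so was intergenic, nearest Zfp236. H3K9me3 was lower with the D2 segment at members in Pigl, an enzyme of GPI anchor synthesis (chr11:62506163-62514980), with line means of 115, 34.02, 38.5 and 80.5 CPM in B6, B6-13D2, D2 and D2-13B6, and at Eif4a1, Cd68 and Mpdu1 (chr11:69661153-69668593), with 37.7, 12.5, 18.1 and 49.9 CPM. H3K27ac at these 4 members did not differ by 2-fold with the segment. At Xkr8 (chr4:132731287-132739947) H3K27ac was 189, 184 and 202 CPM in B6, 91.9, 91.4 and 89.2 in B6-13D2, 100.2, 97.6 and 101 in D2 and 191, 196 and 202 in D2-13B6, lower with the D2 segment in every library but by less than 2-fold on the D2 background, so that it is not among the 5. Its H3K9me3 was 8.45, 15.2 and 14.8 CPM in B6, 30.7 and 33.99 in B6-13D2, 37.5 and 46.6 in D2 and 23.4, 32.6 and 31.6 in D2-13B6, low in B6 alone. Without D2-13B6 replicate 1 H3K9me3 gave 14 members higher and 1 lower by 2-fold or more over all autosomes, and H3K27ac gave 16 and 7 as before; the member in Pigl no longer reached 2-fold. The member with the largest range of H3K27ac over the 4 lines was on chromosome 13, in an intron of Tmem267 (chr13:119595856-119599373), with 261, 252 and 274 CPM in B6, 61.7, 55.4 and 60.99 in B6-13D2, 13.3, 14.9 and 16.1 in D2 and 30.1, 40.4 and 39.3 in D2-13B6. It was lower with the D2 segment by 2-fold or more on both backgrounds, as was 1 other member of that chromosome, at the non-coding Gm18518.

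**Figure D5:**
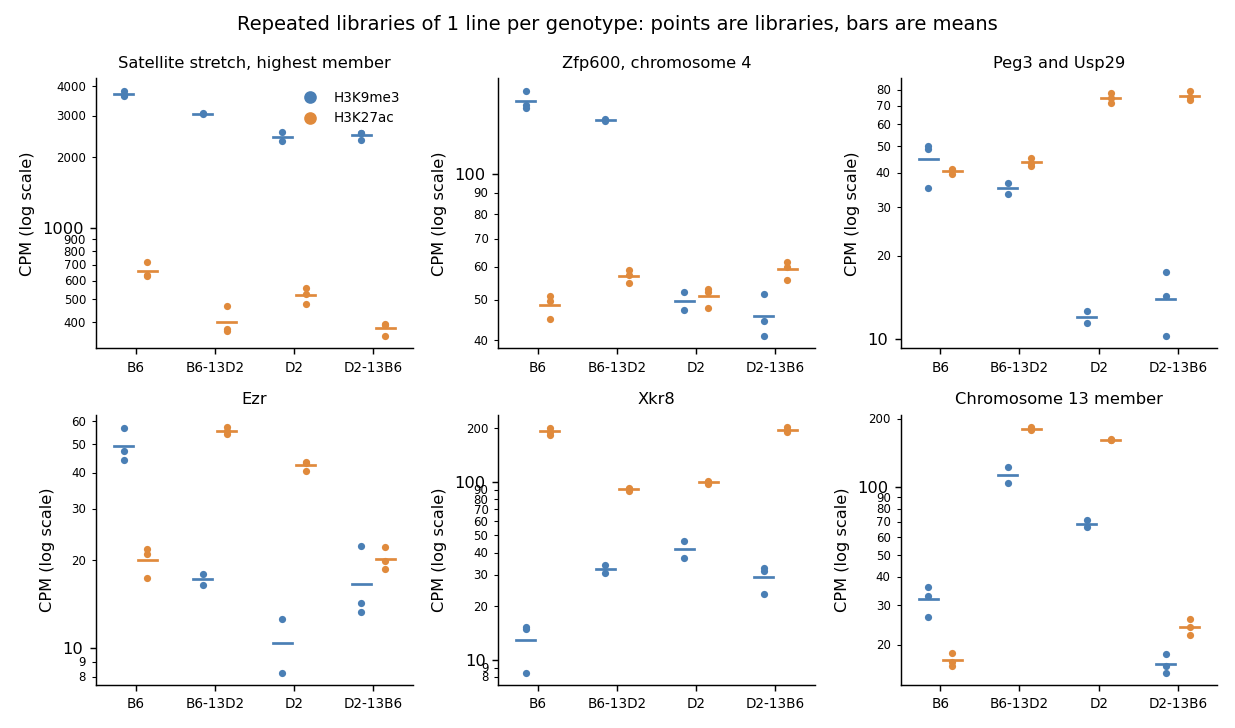
Level of H3K9me3 (blue) and H3K27ac (orange) in each repeated library, in CPM on a log scale, at 6 members in the 4 lines; horizontal bars are the line means. The satellite member and Zfp600 separate the backgrounds in H3K9me3, Peg3 and Usp29 show the marks in opposite order, H3K27ac at Ezr and Xkr8 goes with the segment, and both marks go with the segment at the chromosome 13 member.

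One member matched mitochondrial DNA. chr1:24611449-24616261 shares 93.6% of its 75-base words with the mitochondrial genome, and it was the only member with any. It had the largest range of H3K9me3 over the repeated lines, at 17.9, 12.6 and 13.8 CPM in B6, 17.03 and 14.2 in B6-13D2, 161 and 136 in D2 and 429, 91.1 and 137 in D2-13B6. The order was not that of the separate lines, which had 30.9, 39.1 and 38.5 CPM in B6 and 10.4, 15.2 and 12.6 in D2 (log2 fold change -1.57, SE 0.21, adjusted p = 1.16e-07). H3K27ac was 15.3, 20.2 and 55.8 CPM in B6, 37.4, 48.2 and 19.2 in B6-13D2, 17.8, 32.5 and 26.97 in D2 and 25.1, 14.3 and 13.3 in D2-13B6, which overlap. The other member named for its range of H3K9me3 was chr13:65847422-65848507 in Platr2, a non-coding gene, with line means of 15.3, 120.2, 81.01 and 12.3 CPM in B6, B6-13D2, D2 and D2-13B6. A member at the gene models Gm26917 and Gm42418 (chr17:39842704-39849000), chosen after its values were seen, was high in both marks in all lines, with H3K9me3 of 497, 560.2 and 592 CPM in B6, 482 and 493 in B6-13D2, 560.5 and 556 in D2 and 597, 690.0 and 675 in D2-13B6.

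The threshold cut through a continuous range. Just inside it lay chr16:18016160-18019573, 33.3 kb from Dgcr6, and chr6:3556534-3558113 in Vps50, whose D2 means of H3K9me3 were both 10.00 CPM. Just outside lay chr3:145442966-145444057 in Col24a1, with 9.99 CPM of H3K27ac in D2, and chr8:20575562-20575800 in Gm21092, with 9.996 CPM of H3K27ac in D2-13B6. In the separate lines, which the rule did not use, H3K9me3 reached 10 CPM at 83.7% to 88.4% of the members per library, against 6.98% to 8.70% of the autosomal list, and at 1208 members (72.1%) in all 6 libraries. Leaving out any 1 of the repeated libraries gave 1603 to 1680 members.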

How the data were processed

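Chromatin immunoprecipitation sequencing of 2 histone marks gave 34 libraries. Per the labels' protocols, formaldehyde-fixed embryonic stem cells were fragmented with MNase and sequenced in 75-base reads; per the submitters' processing notes, Trimmomatic 0.39, HISAT2 2.2.1, MACS 1.4.2, bedtools 2.9.2 and edgeR were used on mm10. The authors deposited 4 tables of raw counts per region, with no normalization; 2 columns that match no sample's labels were not used. How reads that align to several places were assigned is not given in the sources used here, which bears on every repeated region, and mm10 is the C57BL/6J genome; the effect of either on the values was not tested.

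From the counts, levels were computed as CPM of the column total. The strain contrast was fitted with edgeR 4.0.16 (R 4.3.3) on each whole table of separate lines: filterByExpr with a minimum count of 10, TMM scaling, quasi-likelihood test, Benjamini-Hochberg adjustment over all regions tested, threshold 0.05. The H3K27ac table of the separate lines has its own 96988 regions, so each member took the region with the largest overlap of at least 1 bp; 131 members had none. DESeq2 1.42.0, other scalings and filters, the replicate block and left-out libraries were alternatives. The fits were also run on simulated data, with the outcome not reported here. Repeated words, periods and motifs were counted in GRCm38 with Python 3.11.15, numpy 2.4.6 and numba 0.67.0, and genes came from GENCODE M21.

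Regions named were up to 4 members per gene list and 6 of all members by the highest geometric mean level over lines and marks, the 3 longest stretches of members, the 4 largest changes each way per mark among called members whose groups did not overlap, the 2 largest ranges over lines per mark and the nearest 2 on each side of the threshold. The members, the lists and the classes by density, repeated words and position were chosen with earlier results of these data known. The repeated libraries are technical replicates, and the separate lines are biological ones.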

Additional observations from a re-analysis of the deposited data

Results flagged for a closer look

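In H3K27ac, the lines with and without the D2 segment of chromosome 13 differed in opposite directions on the 2 backgrounds at 13 of the named members: every library of the line with the D2 segment lay on one side of its partner line on the B6 background and on the other side on the D2 background. The difference between the backgrounds was not tested. Each value below is the log2 difference of line means, with the D2 segment minus without it, on the B6 background and then on the D2 background.

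At the 6 highest members of the chromosome 9 satellite stretch the differences were -0.72 and 0.46, -0.77 and 0.56, -0.82 and 0.55, -0.72 and 0.44, -0.85 and 0.55, and -0.82 and 0.54. At the members on chromosome 2 they were -0.36 and 0.27 (chr2:98664792-98665425) and -0.36 and 0.21 (chr2:98666111-98667424). The chromosome 14 member had -0.65 and 0.41, and the wide member at Sfi1 had -1.01 and 0.54. All of these were lower in both congenic lines than in the B6 and D2 lines of the same background. Over all members only a stricter criterion was counted, every congenic library below every library of B6 and D2 in H3K27ac. It was met by 29 members (1.73%), against 1.13% of the 13604 autosomal regions with 10 CPM of H3K27ac in every library. The reverse, every congenic library above, was found at 18 members (1.07%), against 2.54% of those regions. Of the 29 members of the chromosome 9 stretch 4 were below. The congenic lines and the parental lines are 1 line each, so line and genotype cannot be told apart.

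Of the named members, 3 showed the reverse and were higher in both congenic lines: 0.23 and -0.21 in the Zfp600 member, 0.36 and -0.23 in Tns3 and 0.28 and -0.22 in Abat.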

How the results depend on the processing

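The number of members was 1603 to 1680 when any 1 repeated library was left out, 1650 with TMM-scaled levels and 1670 with indistinguishable H3K27ac libraries averaged first; without D2-13B6 replicate 1 of both marks, an alternative chosen after seeing the data, it was 1618. Called members numbered 625 to 698 for H3K9me3 and 1033 to 1111 for H3K27ac when 1 separate line was left out, and all called regions 13451 to 15337 and 40681 to 46596. For H3K9me3, DESeq2 called 9620 of all regions and 568 members, in place of 15525 and 751. A filter at a mean of 20 counts left 6650 called regions, since fewer were tested. Without a filter 442 members and 15379 of 248198 regions were called; the cause was not tested. Replicate numbers did not pair the samples: same-numbered lines correlated at -0.055, -0.0073 and -0.050 for H3K9me3 and 0.049, -0.056 and 0.049 for H3K27ac, and not every line correlated best with its own number. With the replicate number as a block, 707 members and 14508 regions were called for H3K9me3, and 1121 and 47711 for H3K27ac.

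Of the log2 fold changes of named regions under these settings, 971 kept direction and call, 39 lost the call, 16 gained it and 25 changed sign. All sign changes were at log2 fold changes of -0.26 to 0.18 in the main fit, and the cause was not tested. For H3K9me3 the values without 1 line ran from -0.26 to 0.054 at Tfcp2l1, -0.37 to 0.11 at Esrrb, -0.25 to 0.0036 at the Sfi1 member, -0.20 to 0.47 at Klf2, -0.42 to 0.060 at Sfmbt2, -0.43 to 0.041 at the Gm40987 member and -0.48 to 0.027 at the Gm26917 member. With library totals in place of TMM they were 0.038 at Tfcp2l1, 0.047 at Esrrb and 0.049 at the Sfi1 member. For H3K27ac the values without 1 line ran from -0.042 to 0.11 at Atf7ip, -0.0087 to 0.033 at Klf2, -0.017 to 0.17 at Morc3 and -0.011 to 0.12 at Lars2. Atf7ip was at -0.0085 with library totals and -0.019 with the filter at a mean of 20 counts, and Klf2 at -0.015 and -0.025.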
